A study of Mus musculus with 12 samples.

Results

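Sox9, Dlx3, Meox1, Tbx2 and Tbx4 encode transcription factors of cartilage, bone, somite and limb mesenchyme that lie outside the Hox clusters. They were taken by gene symbol from a table of 658 genes, and all 5 were present and passed the filter on low values (a minimum of 1 TPM, an abundance scaled by transcript length and library, in 6 or more libraries), as did 512 genes of the table in all. The libraries came from mouse bone marrow mesenchymal stem cells (BMSCs), the plastic-adherent stromal cells of marrow that can form bone, cartilage and fat. All 12 libraries are labelled WT, from cells grown with 15% fetal bovine serum and 1% antibiotics, and all received osteogenic induction medium, which held ascorbic acid at 50 µM, dexamethasone at 100 nM and β-glycerophosphate at 10 mM. In 6 of them the agent is given as α-Asaronel, read here as α-asarone, a phenylpropanoid of Acorus oil, and in the other 6 as control. The sources used here give no dose or exposure time and no strain, sex or age of the mice. Nothing in them ties the 6 libraries of a group to separate animals or cultures, so a p-value here reflects only how much these libraries varied, which may be technical.

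SOX9 is an HMG-box protein required for cartilage formation, where it acts with SOX5 and SOX6 on collagen II and aggrecan genes. MEOX1 is a homeodomain protein of the early somite and of the sclerotome, from which vertebrae and ribs arise. TBX2 and TBX4 are T-box proteins: TBX2 is mainly a repressor, with known roles in the heart, palate and digits, and TBX4 is known for hindlimb and lung mesenchyme. DLX3, a homeodomain protein of the distal-less family, acts in placenta, hair follicle, tooth and bone.

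The families are told apart by their DNA-binding regions. Stretches of Sox9 and Dlx3 are shown because they hold the signatures that place the genes in the HMG-box and homeobox families. Each is 60 bases of spliced coding sequence, 5′ to 3′ on the gene's own strand, from GENCODE release M21 transcripts on GRCm38. Capitals mark the 9 codons of the SOX signature at the start of the HMG box in the Sox9 line, and the 6 codons of the conserved motif in the DNA-contacting helix of the homeodomain in the Dlx3 line.
Sox9: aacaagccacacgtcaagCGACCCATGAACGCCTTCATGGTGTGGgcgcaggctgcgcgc
Dlx3: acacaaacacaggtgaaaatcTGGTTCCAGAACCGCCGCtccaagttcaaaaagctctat

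The Sox9 stretch lies in exon 1 at chr11:112782885-112782944 on the plus strand. That of Dlx3 (chr11:95121887-95123456, plus strand) joins exons 2 and 3 across an intron. The longest run of identical bases shared by the annotated transcripts of any 2 of the 5 genes was 22 bases, between Sox9 and Dlx3, and for the related Tbx2 and Tbx4 it was 12. The estimated counts of all 5 genes were whole numbers in 12 of 12 libraries, so none of their values carried a visible fraction shared with another gene. The gene span of Meox1 overlaps that of Gm11551, which is annotated on the opposite strand. Whether the libraries kept strand is not given, so reads from any exon bases shared by that pair could not be told apart. Whether their exons overlap was not examined. The other members overlap no annotated gene.

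Total estimated counts over the table ranged from 843595 to 1224256 per library, and the TPM of its genes summed to 5.36% to 5.67% of the scale. These totals are therefore of part of each library. Counts of the 5 genes ranged from 27 (Dlx3) to 383 (Sox9) per library. In controls their mean TPM was low beside the other tested genes, whose median was 35.1 TPM: 19.7% of tested genes lay below Sox9 and 3.12% below Dlx3. Of the stromal markers fixed for this cell type, 0 of 10 were in the table, so the labelled cell type could not be checked against its defining markers. In controls the osteoblast collagen gene Col1a1 was at 1852 ± 141 TPM (SD, n = 6), and 4 macrophage markers summed to 834 to 923 TPM.

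With α-asarone, Meox1 was 2.27-fold higher, Tbx4 1.32-fold higher and Tbx2 1.21-fold higher, while Sox9 was 1.20-fold lower. Dlx3 did not pass the test. Thus 4 of the 5 genes were called by edgeR's quasi-likelihood test at an adjusted p under 0.05, beside 30.3% of all genes tested. The 3 rises stand beside 12.9% of tested genes called higher and the 1 fall beside 17.4% called lower. The overall split depended on the scaling: 66 genes were higher and 89 lower with TMM factors, and 127 higher and 62 lower with table totals, under which the 5 genes kept their direction. Meox1 and Tbx4 were the 2 members whose groups did not overlap, both with higher treated values, beside 14.3% of all tested genes without overlap (5.86% higher and 8.4% lower). In these bulk samples, a change in the share of cells that express a gene and a change in RNA per cell cannot be told apart. The plot of all tested genes shows where the 5 genes fell.

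**Figure D1:**
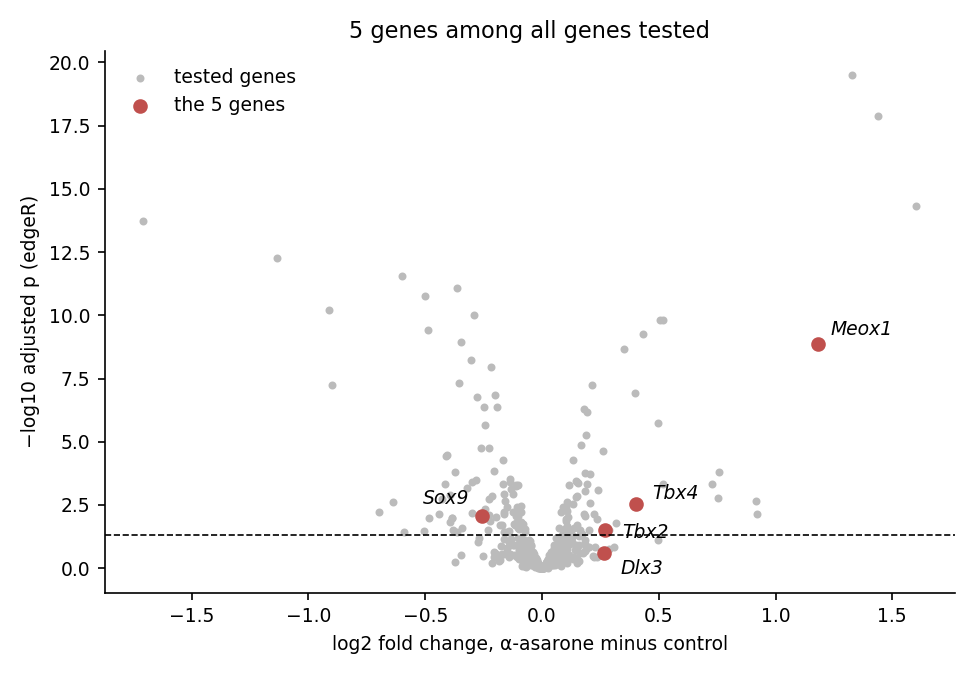
Each point is 1 of 512 tested genes, with the log2 fold change (α-asarone minus control) on the x axis and −log10 of the edgeR adjusted p on the y axis. The dashed line is the threshold of 0.05; Meox1 lies far to the right at 1.18, Sox9 to the left of 0, and Dlx3 below the line.

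Meox1, the somite homeobox gene (ENSMUSG00000001493, chromosome 11, 101877510 to 101894374, minus strand), ranged from 2.53 to 3.96 TPM in controls with a median of 3.40. With α-asarone it ranged from 6.73 to 8.85 TPM with a median of 7.44. Every α-asarone library lay above every control library. The lowest treated value, in replicate 1, was well above the highest control value, in replicate 3. The means were 3.31 ± 0.55 and 7.59 ± 0.914 TPM (SD, n = 6 each). The log2 fold change of Meox1 was 1.18 ± 0.12 (SE, edgeR adjusted p = 1.32e-09), and the 95% interval of the fold ran from 1.93 to 2.67. A rise at least this large was seen in 0.781% of tested genes, that is in Meox1 and 3 others, and 1.17% of tested genes were called with a log2 change of at least 1 in either direction. The exact 2-sided permutation test gave p = 0.00216, the smallest that 6 against 6 libraries can give (adjusted p = 0.0152, reached under 0.05 by 22.3% of tested genes). Its call held under all 25 alternatives tried.

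Tbx4, the hindlimb T-box gene (ENSMUSG00000000094, chromosome 11, 85886422 to 85916097, plus strand), ranged from 3.11 to 4.03 TPM in controls with a median of 3.48, and from 4.13 to 5.31 TPM with α-asarone with a median of 4.84. The groups did not overlap, although the highest control, replicate 2, and the lowest treated library, also numbered 2, were close. The means were 3.56 ± 0.387 and 4.72 ± 0.436 TPM (SD, n = 6 each). The log2 fold change of Tbx4 was 0.40 ± 0.10 (SE, edgeR adjusted p = 0.00277), with an interval of the fold from 1.14 to 1.53, and 3.12% of tested genes rose as much or more. As for Meox1, the exact permutation p of 0.00216 was the smallest possible, and the call held under all 25 alternatives.

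Tbx4 is the 1 member with several annotated transcripts, 3 in number. They start at the gene start and 3.64 and 10.3 kb downstream, and are 3153, 3011 and 2959 bases long. The ratio of estimated count to TPM measures the transcript length to which the authors' quantification assigned the reads. For the 4 members with 1 annotated transcript it returned the annotated length within 0.57 bases in every library. For Tbx4 it gave 3034 to 3076 bases with α-asarone and 2980 to 3153 bases in controls, with means of 3054 ± 17.4 and 3070 ± 65.3 bases (SD, n = 6 each). The assigned length thus varied more between control libraries than between treated ones, a difference in spread that was not tested. The group ranges overlapped, and the exact permutation p for the mean length was 0.591. As 1 average over 3 transcripts, this length does not fix their mixture. The rise of Tbx4 was present both in counts and in TPM.

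Tbx2, the T-box repressor gene (ENSMUSG00000000093, chromosome 11, 85832551 to 85841948, plus strand), lies 44.5 kb from Tbx4. It ranged from 3.40 to 4.19 TPM in controls with a median of 3.53, and from 3.66 to 5.10 TPM with α-asarone with a median of 4.57. The groups overlapped: 4 of 6 treated libraries lay above the highest control, and treated replicates 1 and 2 lay within the control range. The means were 3.69 ± 0.33 and 4.45 ± 0.493 TPM (SD, n = 6 each). The log2 fold change of Tbx2 was 0.27 ± 0.10 (SE, edgeR adjusted p = 0.0305), with an interval of the fold from 1.05 to 1.38, and a change upward of this size or more was seen in 4.49% of tested genes. The call was lost in 8 of 12 fits that left out 1 library, namely α-asarone replicate 3, 4, 5 or 6 or control replicate 1, 3, 4 or 6, with adjusted p values up to 0.0835, and the exact permutation test gave p = 0.0130 (adjusted p = 0.0554). The direction was the same in all 25 alternatives.

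Sox9, the chondrogenic gene (ENSMUSG00000000567, chromosome 11, 112782224 to 112787760, plus strand), ranged from 7.28 to 10.96 TPM in controls with a median of 9.78, and from 7.15 to 8.60 TPM with α-asarone with a median of 7.995. In 5 of 6 controls the level was above every treated library. The exception was control replicate 6, at 7.28 TPM, near the lowest treated value. The means were 9.54 ± 1.23 and 7.93 ± 0.615 TPM (SD, n = 6 each). The log2 fold change of Sox9 was −0.26 ± 0.08 (SE, edgeR adjusted p = 0.00889), a fall of 16.4% with an interval from −24.9% to −7.01%, and 8.01% of tested genes moved downward as much or more. In the 12 fits that left out 1 library, the edgeR adjusted p ran from 2.9e-04 to 0.0301. The lowest came without control replicate 6, with a log2 fold change of −0.33. That library was the 1 control within the treated range, so leaving it out enlarges the difference by construction. It did not stand apart from the other controls in the check of single libraries given below. The exact permutation test over all 12 libraries gave p = 0.0281 and did not pass after adjustment (adjusted p = 0.101), and limma on log2(TPM + 0.1) gave an adjusted p of 0.0509.

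Dlx3, the distal-less gene (ENSMUSG00000001510, chromosome 11, 95120119 to 95125296, plus strand), ranged from 1.32 to 2.05 TPM in controls with a median of 1.64, and from 1.30 to 2.45 TPM with α-asarone with a median of 2.12. The treated values were scattered: 3 of 6 lay above the highest control and replicate 6 lay below the lowest. The means were 1.65 ± 0.248 and 1.97 ± 0.503 TPM (SD, n = 6 each). The log2 fold change of Dlx3 was 0.27 ± 0.17 (SE, edgeR adjusted p = 0.248), close in size to that of Tbx2 (4.69% of tested genes had an upward change this large), but the interval ran from a fall of 5.55% to a rise of 53.0%. The mean count of Dlx3 was 40.8 per library. The coefficient of variation of TPM was 25.5% among treated libraries, where counting alone gives 15.1%, and 15.1% among controls, where counting alone gives 16.3%. Dlx3 passed in 0 of the 25 alternatives, with adjusted p values from 0.115 in the edgeR fit without α-asarone replicate 1 to 0.440 in that without α-asarone replicate 5.

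**Figure D2:**
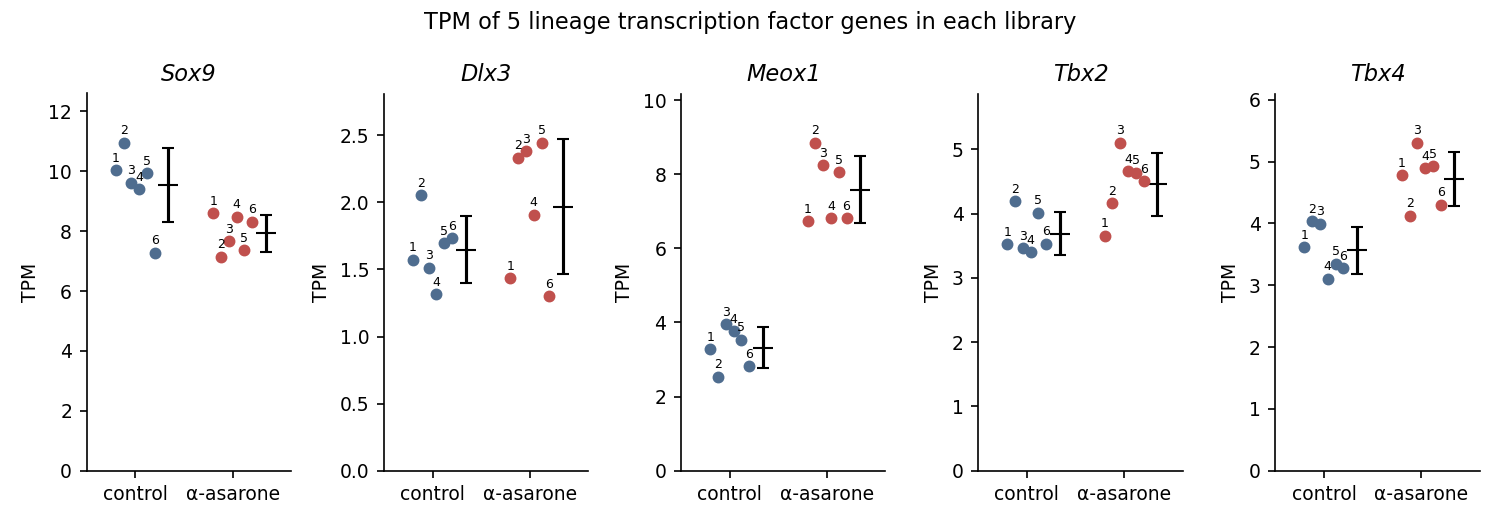
Points are the TPM of each gene in each library, numbered by replicate, with 6 control and 6 α-asarone libraries per panel; bars give the mean and SD and each y axis starts at 0. Groups are separate for Meox1 and Tbx4, overlap through control replicate 6 for Sox9, and overlap for Tbx2 and Dlx3.

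The order of the 5 genes by TPM, a scale that accounts for transcript length, differed between the groups. In controls Sox9 was the highest in 6 of 6 libraries and Dlx3 the lowest in 6 of 6. Between them, Tbx2 was above Tbx4 in 4 of 6 control libraries and Meox1 was above each of them in 2 of 6, so these 3 levels were not separated. With α-asarone, Meox1 was above Tbx2 and Tbx4 in 6 of 6 libraries and above Sox9 in 3 of 6, so that Sox9 and Meox1 were not separated, while Tbx2 and Tbx4 were again mixed and Dlx3 remained the lowest in 6 of 6.

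Expressed as a share of Sox9, the level of Meox1 was 23.1% to 41.2% in control libraries with a mean of 35.2 ± 6.69% (SD, n = 6). With α-asarone it was 78.3% to 124% with a mean of 96.9 ± 19.2% (SD, n = 6). The level of Tbx4 as a share of Tbx2 was 97.0 ± 11% in controls and 107 ± 12.5% with α-asarone (SD, n = 6 each), with overlapping ranges. The summed TPM of the 5 genes ranged from 18.7 to 23.8 in controls and from 25.2 to 28.7 with α-asarone. Sox9 made up 43.7% of that sum on average in controls and 29.9% with α-asarone, and Meox1 15.3% and 28.4%. The mean of the sum went from 21.75 TPM in controls to 26.67 TPM with α-asarone, and that of Meox1 from 3.31 to 7.59 TPM. Most of the higher sum is therefore Meox1, and the sum does not show that the 5 genes rose together. The lower share of Sox9 is likewise in part the rise of Meox1.

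**Figure D3:**
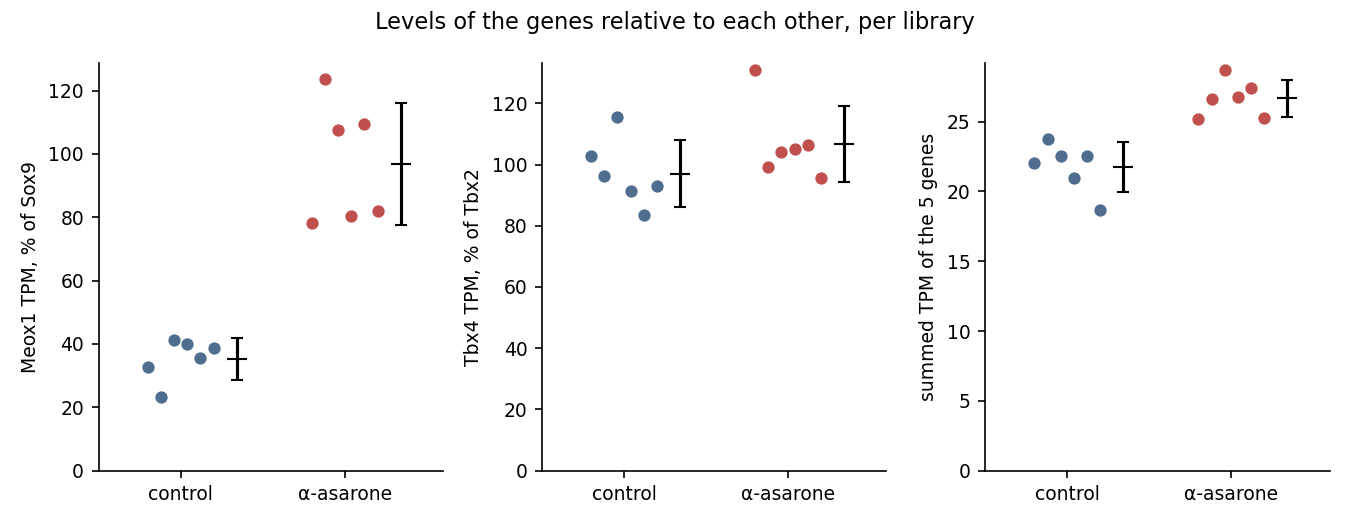
Points are single libraries (6 per group) with mean and SD, for the TPM of Meox1 as a percentage of Sox9, the TPM of Tbx4 as a percentage of Tbx2, and the summed TPM of the 5 genes. The groups are separate in the left and right panels, whose quantities both include Meox1, and overlap in the middle one.

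Within the α-asarone group, the same libraries stood high or low for several members. Replicates 2, 3 and 5 held the 3 highest values of Meox1 and of Dlx3 and the 3 lowest of Sox9, and replicates 1, 4 and 6 the reverse. For Meox1 the former lay between 8.06 and 8.85 TPM and the latter between 6.73 and 6.82 TPM. For Dlx3 they lay between 2.33 and 2.45 TPM and between 1.30 and 1.91 TPM, and for Sox9 between 7.15 and 7.67 TPM and between 8.32 and 8.60 TPM. Tbx2 and Tbx4 did not follow this order. The total counts of the table did not follow it either, since replicates 1 and 2 had the most counts and replicates 3 and 4 the fewest. This pattern was noticed in the values and was not tested.

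Related genes in the table were few. By the deposited transcription factor annotation, the T-box family had 1 other gene, Tbx21, the T cell factor, listed at 0 in all 6 treated libraries and at a mean of 0.00733 TPM in controls. Of the HMG family, Hbp1 fell (log2 fold change −0.14 ± 0.03 SE, edgeR adjusted p = 4.0e-04), while Tcf7 (−0.14, adjusted p = 0.374) and Tfam (0.06, adjusted p = 0.354) did not pass. The homeobox family held 17 genes, of which 9 were tested. Of these 9, Meox1 was the 1 called higher and 4 were called lower, beside 12.9% and 17.4% of all genes tested. The 4 that fell were all Hox genes: Hoxc13 (−0.43), Hoxc6 (−0.41), Hoxc11 (−0.38) and Hoxa10 (−0.21, all log2 fold changes). Of the 6 homeobox genes outside the Hox clusters other than Meox1 and Dlx3, Irx2 alone was tested, and it did not pass (0.11 ± 0.16 SE, adjusted p = 0.626). Over the 48 other tested genes annotated as transcription factors, 7 were higher and 12 lower, with a median log2 fold change of −0.05, beside 12.9% and 17.4% of all genes tested and a median of 0.00069.

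**Figure D4:**
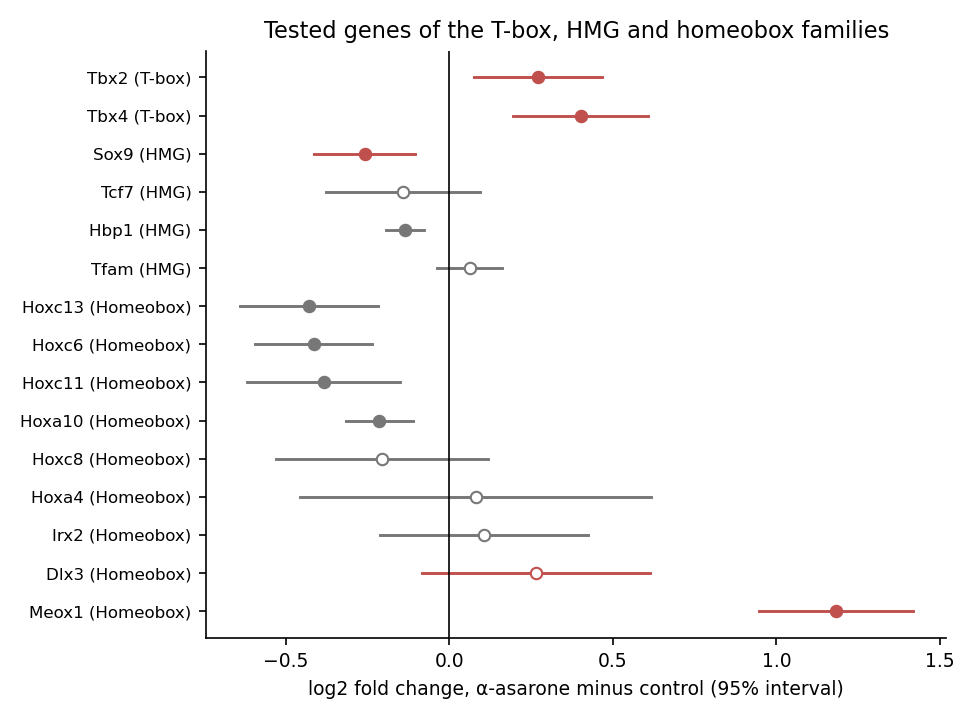
Points are edgeR log2 fold changes (α-asarone minus control) with 95% intervals for the 15 tested genes of the T-box, HMG and homeobox families, with the 5 genes in red; filled points have an adjusted p under 0.05. Meox1 at 1.18 stands right of every other gene, and the 4 called Hox genes lie left of 0.

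The 8 lists of related genes named 212 genes, of which the table held 14 and 4 were tested. No gene of the SOX family list or of the list of cartilage matrix genes and SOX9 targets was in the table, so the fall of Sox9 could not be set beside collagen II or aggrecan. Among other mesoderm factors, Mef2d, a MADS-box factor of muscle, rose from 54.9 ± 2.73 to 61.3 ± 2.41 TPM (SD, n = 6; log2 fold change 0.15, edgeR adjusted p = 3.5e-04). Pax9, a paired-box gene of the sclerotome, did not reach the filter, with control and treated means of 1.05 ± 0.15 and 0.923 ± 0.217 TPM (SD, n = 6), and the myogenic gene Myf5 and the somite Notch ligand gene Dll3 were listed at 0 in every library. Lhx2, a LIM homeobox gene of limb mesenchyme, was also not tested, with means of 0.677 ± 0.29 TPM in controls and 0.277 ± 0.243 TPM in treated libraries (SD, n = 6).

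Of the osteoblast list, Col1a1 fell to 1304 ± 78.8 TPM (SD, n = 6; log2 fold change −0.50 ± 0.04 SE, edgeR adjusted p = 1.79e-11), the control and treated means of Fgf23 were 0.164 and 0.223 TPM, and Sost was listed at 0. Of the limb signalling list, Axin2, a Wnt feedback gene, was at 6.73 ± 1.54 TPM with α-asarone against 6.03 ± 0.894 TPM in controls (SD, n = 6). It did not pass in counts (log2 fold change 0.04, edgeR adjusted p = 0.73), nor did Tcf7, and Shh and Wnt3 were listed at 0. The assigned transcript length of Axin2 was 2702 to 3808 bases with α-asarone and 2965 to 3704 bases in controls, so its counts and TPM measure different things. Cdh1, the 1 gene of the TBX2 target list in the table, reached a mean of 0.0722 TPM in controls and was not tested.

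Gene annotation terms deposited with the table gave a few more skeletal genes. Apart from Sox9, the term for chondrocyte differentiation held 3 genes, and 3 of 3 rose, beside 12.9% of all tested genes called higher and 17.4% called lower: Wnt9a, a Wnt ligand of joints (log2 fold change 0.52, edgeR adjusted p = 4.5e-04), Tgfb1 (0.17) and Mef2d. Their median was 0.17, beside 0.00069 over all genes tested. These shares also stand beside the terms that follow. Cartilage development held 2 other tested genes, of which Wnt9a rose and Timp1 did not pass (−0.04, edgeR adjusted p = 0.50). Skeletal system development held 10 other tested genes, of which Tgfb1 and the lysosomal phosphatase gene Acp2 (0.10) rose and Col1a1, Hoxc6, Hoxc11 and Hoxa10 fell. Of 6 tested genes of osteoblast differentiation, the chemokine gene Ccl3 (0.32), Mef2d and the Hedgehog receptor component Smo (0.13) rose and Col1a1 fell. Of the 3 tested genes of limb development, Rarg, a retinoic acid receptor gene, fell (−0.25). The 1 other tested gene of embryonic limb morphogenesis, which includes Tbx4, was Hoxa10, and somite specification held Meox1 alone.

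Markers of other cells that a marrow culture can hold moved between the groups as well. The summed TPM of 4 of 10 macrophage markers (Spi1, Itgb2, Cfp, Clec10a) was 834 to 923 in controls and 967 to 1123 with α-asarone. Most of that rise was in Cfp, called higher, whose mean went from 331.6 to 469.3 TPM. Spi1 was also higher (143.4 to 163.1 TPM) and Itgb2 lower (293 to 273.3 TPM). Clec10a did not pass (edgeR adjusted p = 0.0717). The smooth muscle marker Cnn1, 1 of 6, was at 21.8 to 30.3 TPM in controls and 6.82 to 9.97 TPM with α-asarone, and the osteoclast marker Acp5, 1 of 7, at 57.9 to 78.4 and 25.1 to 38.4 TPM. Of 9 adipocyte markers, 4 could be summed (Pparg, Lipe, Plin4 and Cd36). Their sum was 349 to 406 TPM in controls and 393 to 507 TPM with α-asarone. Of these 4 genes, 3 were called higher, beside 12.9% of all genes tested. Pparg did not pass (log2 fold change −0.05, edgeR adjusted p = 0.43). Col6a1, 1 of 6 genes on the tendon list, was at 630 to 654 TPM in controls and 704 to 755 TPM with α-asarone. By itself Col6a1 does not show that tendon cells were present. The sum of 2 of 6 endothelial markers reached at most 2.11 TPM, and that of 3 of 8 lymphocyte markers at most 0.099 TPM. The neural marker Ngfr, 1 of 7, was at 0.343 to 0.832 TPM in controls and 0.774 to 1.505 TPM with α-asarone. Myf5, 1 of 7 skeletal muscle markers, was listed at 0. None of 9 chondrocyte markers was in the table. The part of these shifts in cell markers in the changes of the 5 genes was not tested.

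All 5 genes lie on chromosome 11, as do 99 of the 658 genes of the table. Of the 64 other tested genes of that chromosome, 7 were higher and 12 lower, with a median log2 fold change of −0.00012, beside 12.9% higher and 17.4% lower over all tested genes. Tbx2 and Tbx4 are neighbours and both rose. The nearest other gene of the table on the Tbx2 side, Usp32, lies 692 kb away and did not pass (−0.02, edgeR adjusted p = 0.655). The nearest on the Tbx4 side, Scpep1, lies 3008 kb away and fell (−0.22). Beside Dlx3, the integrin gene Itga3 at 43.3 kb fell in counts (−0.41, edgeR adjusted p = 3.4e-05). In TPM its means were 8.18 against 9.24 in controls, the groups overlapped, and the exact permutation test did not pass (adjusted p = 0.349). Its assigned transcript length was 3246 to 4861 bases with α-asarone (mean 3960) and 4235 to 4861 bases in controls (mean 4558). Counts and TPM of Itga3 therefore measure different things. Beside Meox1, the osteocyte gene Sost at 68.1 kb was listed at 0 and Rnd2 at 406 kb did not pass (0.01, edgeR adjusted p = 0.937). Ngfr beside Dlx3 was not tested, and its control and treated means were 0.589 and 1.08 TPM. Btbd17 beside Sox9 was listed at 0, and Axin2 lies 3831 kb from Sox9.

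Likeness of pattern was measured as the root mean square difference of log2(TPM + 1) over the 12 libraries, after subtracting each gene's control mean, so that a difference in level is removed and the group difference is kept. Genes near to a member by this measure therefore share its direction and size of change by construction. The genes nearest to Meox1 were Egfl6 (0.277), Angptl4, an inhibitor of lipoprotein lipase (0.312), and Tspan33 (0.347), beside a median of 0.732 over 511 genes. Their log2 fold changes were 1.33, 1.44 and 0.76. Nearest to Tbx2 were Sipa1l2 (0.0860), the lysyl oxidase gene Loxl3 (0.0918) and Tgfb1 (0.108), and nearest to Tbx4 were Loxl3 (0.128), Mmd (0.130) and Sipa1l2 (0.133), where the medians were 0.213 and 0.278. Sipa1l2 and Loxl3 stood in both sets. Nearest to Sox9 were Gmpr (0.116), Rarg (0.120) and Prkra (0.122), beside a median of 0.235. Nearest to Dlx3 were Trmt1 (0.133), Hmgn2 (0.141) and Sipa1l2 (0.147), beside a median of 0.240.

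**Figure D5:**
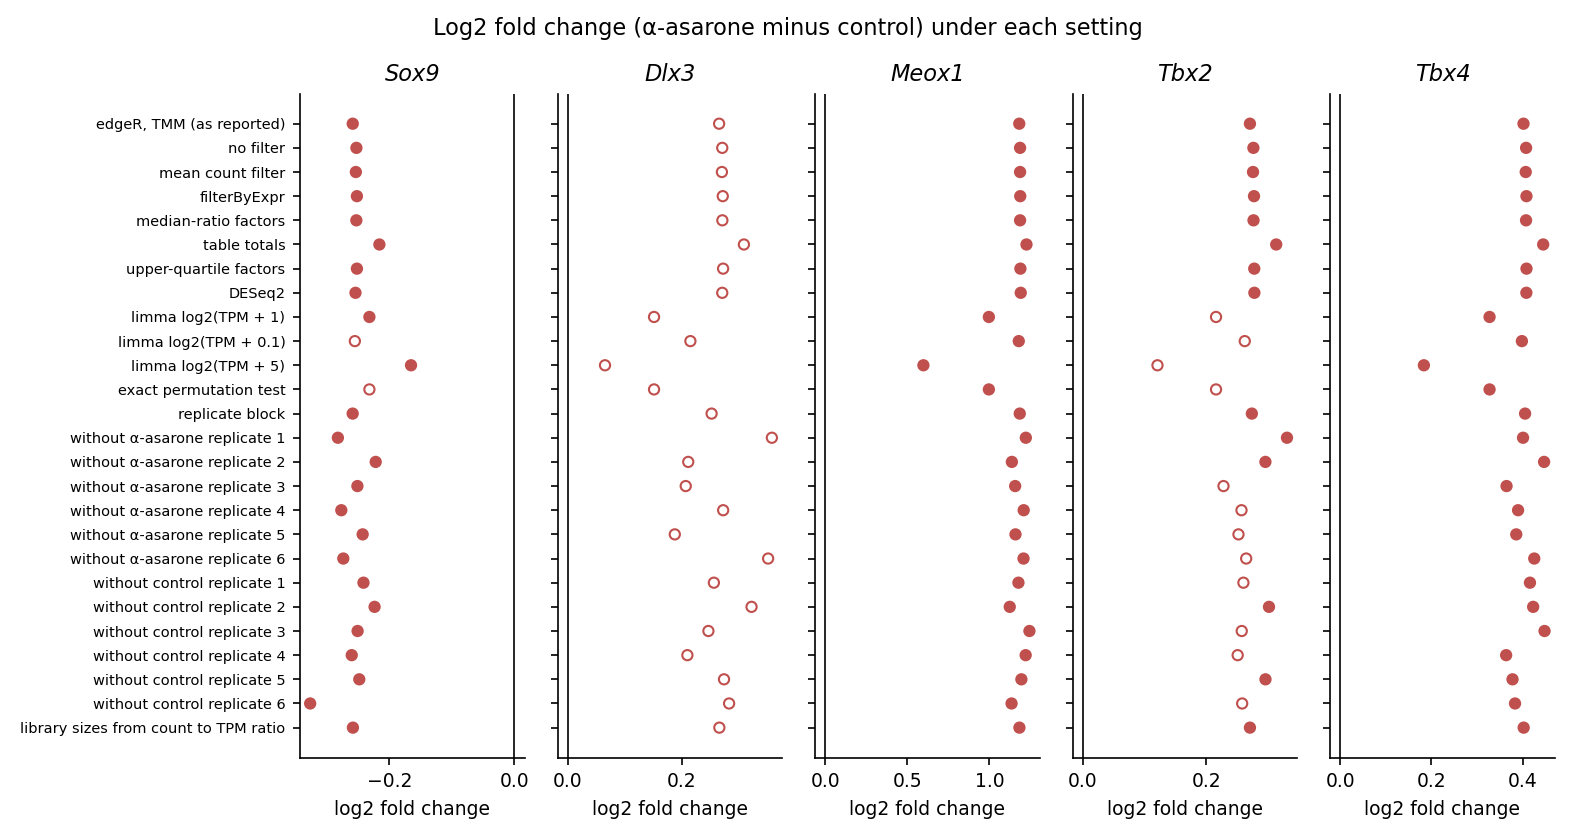
Log2 fold change (x axis, α-asarone minus control) of each gene under the reported fit and 25 other settings (rows); filled points have an adjusted p under 0.05 and open points do not. Signs are the same in every row of a panel, Meox1 and Tbx4 are filled throughout, Dlx3 is open throughout, and Tbx2 is open in 12 of 25 alternatives.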

How the data were processed

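Poly(A) RNA libraries, 6 labelled α-asarone and 6 control, were analysed. Per the file headers, the authors deposited 2 values for each gene in each library, a TPM and an estimated count. Builds GRCm38 and mm10 come from the submitters' processing notes, with the aligner and quantifier not given in the sources used here. TPM of the members with 1 transcript followed count over full transcript length. All 658 identifiers matched GENCODE M21 (GRCm38).

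Estimated counts were rounded to whole numbers and tested with edgeR 4.0.16 (glmQLFit, glmQLFTest, TMM factors, no covariate) in R 4.3.3. Benjamini-Hochberg adjustment ran over the 512 genes that reached a TPM of 1 in 6 or more libraries. Exact 2-sided permutation tests used log2(TPM + 1) over 924 arrangements. Replicate pairs differed beyond sampling noise (chi-square per degree of freedom 2.27 to 11.9). The tests were tested on simulated data. Alternatives used DESeq2 1.42.0, limma 3.58.1, other filters and scalings, a block, and each library left out.

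Named genes were the members, up to 4 called genes of a list or term (otherwise up to 2 of highest TPM), the 3 most alike genes and the nearest table genes on each side. Other genes named here, and the transcript length measure, were chosen after values were seen. Members and lists were chosen with earlier results of these data known. Coding sequence of the other members is not reported here.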

Additional observations from a re-analysis of the deposited data

Results flagged for a closer look

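In 18 groups of 6 libraries (the TPM of each of the 5 genes, 3 quantities made from them and the table totals), the gap between an extreme library and its nearest neighbour was compared with the range of the group. By Dixon's criterion 2 libraries stood apart, where chance gives about 0.9. The level of Tbx4 was 131% of that of Tbx2 in α-asarone replicate 1, with the other treated libraries between 95.5% and 106%. In that library Tbx2 was at 3.66 TPM, the lowest of its group, and Tbx4 at 4.78 TPM. Control replicate 2 held 843595 estimated counts in total, where the 5 remaining controls held 1068547 to 1173845. Without that control the log2 fold changes of Tbx4 and Tbx2 were 0.42 and 0.30, and without α-asarone replicate 1 they were 0.40 and 0.33.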

How the results depend on the processing

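Over 25 alternatives none of the 5 genes changed direction, and the number of genes called stayed between 114 (exact permutation test) and 189 (table totals) against 155. Meox1 and Tbx4 passed in 25 of 25, Sox9 in 23, Tbx2 in 13 and Dlx3 in 0. Tbx2 lost its call with limma on log2(TPM + 1) (0.216), log2(TPM + 0.1) (0.263) and log2(TPM + 5) (0.121), with the exact permutation test (0.216), and with 8 of 12 libraries left out in turn (0.228 to 0.331 over all 12). Sox9 lost it with limma on log2(TPM + 0.1) (−0.255) and the exact permutation test (−0.232), and stayed between −0.327 and −0.222 with each library left out. The cause of these losses was not tested. Table totals shifted the median of all genes by 0.043 and the share of calls that were rises from 42.6% to 67.2%. Library sizes taken from count over TPM, an alternative added after seeing the data, gave 154 calls. Treated and control libraries of the same number correlated at −0.003 to 0.128, 1 of 6 pairs was over 0.1, and the best partner had the same number in 2 of 6, so the numbers were not taken as pairs. With the replicate block 168 genes passed, Tbx2 at 0.274 and Sox9 at −0.259 among them. Dlx3 had the lowest mean count of the 5 genes, 40.8 per library, and whether this bears on its missed call was not tested.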

Other observations

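Terms of heart, mesoderm and mesenchyme that include or adjoin these genes were also counted without them. Heart development held 13 tested genes, of which 3 were higher and 4 lower, with a median log2 fold change of −0.02. Over all tested genes 12.9% were called higher and 17.4% lower, which also stands beside the counts that follow. Mesoderm development held 1 tested gene, the activin receptor gene Acvr1b, which rose by 0.18 on the log2 scale. Epithelial to mesenchymal transition held Loxl3 (0.22) and Tgfb1 (0.17), both of which rose. Of 5 tested genes of ossification, Smo and the osteoclast proton pump gene Tcirg1 (both 0.13) rose and Col1a1 (−0.50) and Sp1 (−0.07) fell.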
